A study of Homo sapiens with 20 samples.

Results

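The signaling lymphocytic activation molecule (SLAM) family receptors were followed in RNA-seq data as a set of 8 genes of the 18305 in the table. They were chosen by gene symbol, as SLAMF1, CD48, LY9, CD244, CD84, SLAMF6, SLAMF7 and SLAMF8, and each of the 8 symbols had its own row. Their NCBI gene IDs were 6504 for SLAMF1, 962 for CD48, 4063 for LY9, 51744 for CD244, 8832 for CD84, 114836 for SLAMF6, 57823 for SLAMF7 and 56833 for SLAMF8. The 20 libraries came from 10 groups with 2 biological replicates each. Wild-type (WT) and bortezomib-resistant (BtzR) cells represented 3 myeloma lines, AMO1, L363 and RPMI-8226 (RPMI in the labels), and ARH-77 (ARH77 in the labels), a B-lymphoblastoid line. Carfilzomib-resistant (CfzR) cells represented AMO1 and L363. All groups shared RPMI-1640 medium with 10% serum, and resistant cells were kept in 90 nM bortezomib or 90 nM carfilzomib, both proteasome inhibitors. There was 1 resistant line for each parent and drug, so acquired resistance, the drug in the medium and drift of that line cannot be told apart.

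SLAM receptors are immunoglobulin-like proteins of the surface of blood cells, related to CD2. Most bind the same receptor on a neighboring cell, whereas CD244 binds CD48. CD48 is held by a lipid anchor and has no signaling tail. The tails of several others carry tyrosine motifs that recruit the adaptors SAP (gene SH2D1A) and EAT-2 (gene SH2D1B), kinases of the SRC family and inhibitory phosphatases. SLAMF7 is abundant on plasma cells and is the target of the antibody elotuzumab in myeloma, and CD48 and LY9 are also known from the myeloma cell surface.

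Of the 8 receptors, 7 are neighbors on chromosome 1, in the order SLAMF6, CD84, SLAMF1, CD48, SLAMF7, LY9 and CD244 of the RefSeq annotation. SLAMF8 lies apart on the same chromosome. The 250 bases before the RefSeq start site (build GRCh38.p14) are shown for CD48, the receptor with the highest values, and for SLAMF1, SLAMF6 and SLAMF8, whose values had the same pattern across lines. Each sequence is written 5′ to 3′ on the strand of the gene, ending at the base before the start site. Capitals mark matches, on either strand, to the octamer ATGCAAAT, an ETS core GGAAGT, an IRF core AANNGAAA, an E-box CANNTG or a GAS element TTCNNNGAA.
CD48, chr1:160711823-160712072, minus strand: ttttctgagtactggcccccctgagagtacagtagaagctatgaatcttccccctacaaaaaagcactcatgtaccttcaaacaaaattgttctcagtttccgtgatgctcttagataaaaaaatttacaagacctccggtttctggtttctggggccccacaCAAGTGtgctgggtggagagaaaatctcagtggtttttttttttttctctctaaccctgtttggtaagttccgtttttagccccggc
SLAMF1, chr1:160647045-160647294, minus strand: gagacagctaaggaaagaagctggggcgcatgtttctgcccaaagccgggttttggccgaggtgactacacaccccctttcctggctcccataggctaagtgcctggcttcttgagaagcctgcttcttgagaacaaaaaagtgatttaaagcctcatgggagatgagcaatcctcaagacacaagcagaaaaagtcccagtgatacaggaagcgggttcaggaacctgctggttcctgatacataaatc
SLAMF6, chr1:160523256-160523505, minus strand: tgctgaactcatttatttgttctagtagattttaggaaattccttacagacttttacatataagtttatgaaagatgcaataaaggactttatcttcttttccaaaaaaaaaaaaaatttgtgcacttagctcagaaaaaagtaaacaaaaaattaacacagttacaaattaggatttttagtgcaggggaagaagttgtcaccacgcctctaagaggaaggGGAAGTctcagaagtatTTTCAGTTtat
SLAMF8, chr1:159826623-159826872, plus strand: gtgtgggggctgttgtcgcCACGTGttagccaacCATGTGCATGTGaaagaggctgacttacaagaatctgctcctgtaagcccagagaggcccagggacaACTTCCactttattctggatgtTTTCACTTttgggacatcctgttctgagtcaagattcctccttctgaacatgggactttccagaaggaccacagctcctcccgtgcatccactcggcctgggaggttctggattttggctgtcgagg

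SLAMF6 and SLAMF8 held the ETS and IRF cores, and SLAMF1 and CD48 held neither. In SLAMF6 the first bases of these matches were at positions -28 and -11 from the start site, and in SLAMF8 they were at -149 and -127. CD48 held 1 E-box, at -87. Of 35116 promoter windows of the same length, 19.5% held the ETS core, 20.3% the IRF core, 61.8% an E-box, 6.57% the GAS element and 1.63% the octamer. Among the 5 receptors with a window, which are these 4 and CD244, 2 held the ETS core, 2 the IRF core, 3 an E-box, 1 the GAS element and 0 the octamer. No match overlapped one to another motif. These are matches of letters, and binding was not measured.

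Values are FPKM, in which fragment numbers are divided by library size and by transcript length, and so can be compared between genes as a level per length. Depth was unknown, so values carry no counting interval. Library sums lay between 457317 and 494850 FPKM, between 10455 and 11023 genes reached 1 FPKM, and replicates correlated across genes with a Pearson r of 0.986 to 0.998. The libraries labelled AMO1 CfzR went against their label. Across genes they correlated with the L363 libraries at r of 0.986 to 0.992 and with the other AMO1 libraries at 0.878 to 0.883. They are called the libraries labelled AMO1 CfzR, and they were compared with L363 WT and L363 CfzR as well as with AMO1 WT. Plasma cell markers reached 1 FPKM for 8 of 8 genes in every WT group, with summed values of 1209 to 4090 FPKM in the myeloma WT libraries and 329 to 340 FPKM in ARH-77 WT. B cell markers reached 1 FPKM for 8 of 8 genes in ARH-77 WT, 4 in RPMI-8226 WT, 1 in AMO1 WT and 0 in L363 WT. Because RNA came from whole cultures, fewer cells with a receptor and less RNA per cell cannot be told apart.

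CD48 and SLAMF7 had the highest values of the family in AMO1 and L363, where they made up most of its RNA. CD48 took 73.6% of the summed FPKM of the 8 receptors in AMO1 WT, 65.9% in L363 WT, 45.5% in RPMI-8226 WT and 75.6% in ARH-77 WT. SLAMF7 took 19.3% in AMO1 WT and 33.6% in L363 WT, but 10.2% in ARH-77 WT and 6.04% in RPMI-8226 WT. The summed level of the family was 468 FPKM in AMO1 WT, 582 FPKM in L363 WT, 285 FPKM in ARH-77 WT and 12.9 FPKM in RPMI-8226 WT. RPMI-8226 thus had the lowest family total of the 4 lines.

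**Figure D1:**
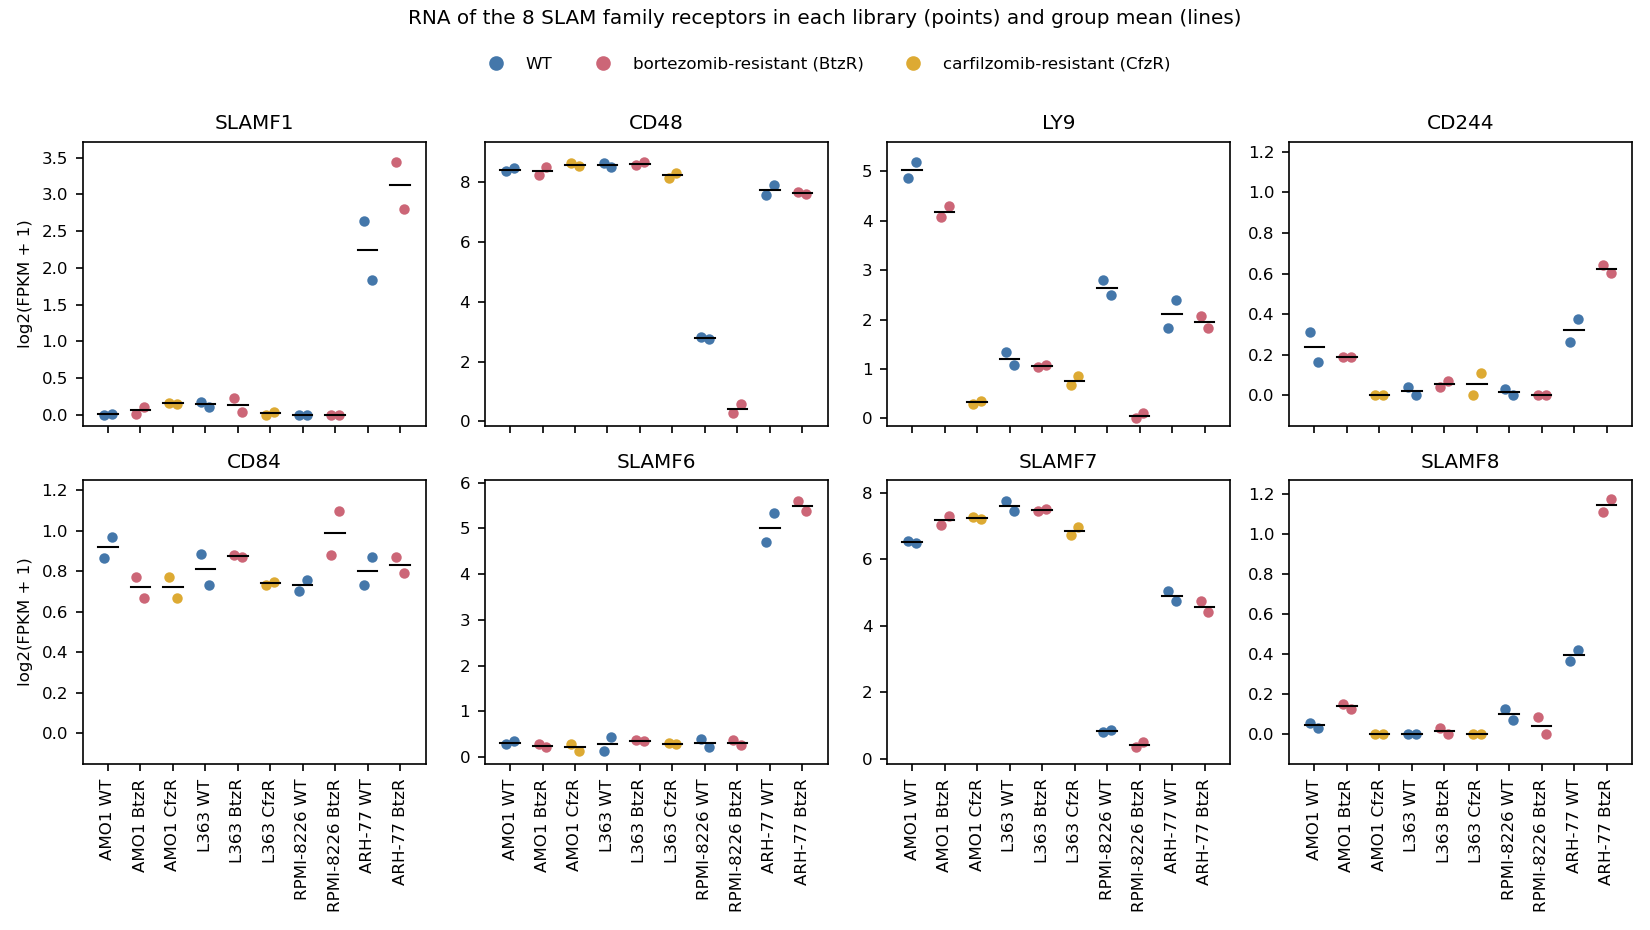
Level of each SLAM receptor on the log2(FPKM + 1) scale (vertical axis, scaled separately for each gene) in the 2 libraries (points) and their mean (line) of each of the 10 groups (horizontal axis). CD48 and SLAMF7 were high in AMO1, L363 and ARH-77 and low in RPMI-8226, LY9 was highest in AMO1 WT, and SLAMF1, SLAMF6 and SLAMF8 were above the other groups in ARH-77.

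CD48, the lipid-anchored ligand of CD244, was measured at 330.24 and 358.77 FPKM in AMO1 WT and at 305.34 and 366.88 FPKM in AMO1 BtzR. In L363 it was at 400.79 and 366.15 FPKM in WT, 384.76 and 405.20 FPKM in BtzR and 284.59 and 318.84 FPKM in CfzR cells. The libraries labelled AMO1 CfzR held 398.14 and 372.97 FPKM. ARH-77 was lower than these groups, with 189.10 and 241.49 FPKM in WT and 204.73 and 195.69 FPKM in BtzR cells. RPMI-8226 stood far below, at 6.02 and 5.74 FPKM in WT and 0.20 and 0.49 FPKM in BtzR cells. In the order of group means, L363 BtzR overlapped with the libraries labelled AMO1 CfzR and these with L363 WT, AMO1 WT overlapped with AMO1 BtzR and AMO1 BtzR with L363 CfzR, and ARH-77 WT overlapped with ARH-77 BtzR. The other neighbors in that order did not overlap. CD48 ranked 162 among all 18305 genes in L363 WT, 187 in AMO1 WT, 265 in ARH-77 WT and 7558 in RPMI-8226 WT.

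SLAMF7 was highest in L363 WT (216.23 and 175.13 FPKM) and L363 BtzR (172.34 and 179.98 FPKM), and L363 CfzR held 105.52 and 123.78 FPKM. In AMO1 it was at 91.91 and 88.56 FPKM in WT and 130.23 and 156.96 FPKM in BtzR cells. The libraries labelled AMO1 CfzR held 152.94 and 146.16 FPKM. Both BtzR libraries of AMO1 lay above both WT libraries, and both CfzR libraries of L363 lay below those of L363 WT and BtzR. ARH-77 held 32.08 and 25.75 FPKM in WT and 25.98 and 20.19 FPKM in BtzR cells, which overlapped. RPMI-8226 held 0.74 and 0.82 FPKM in WT and 0.27 and 0.41 FPKM in BtzR cells, both groups under 1 FPKM. In the order of group means the neighbors that overlapped were L363 WT with L363 BtzR, the libraries labelled AMO1 CfzR with AMO1 BtzR, and ARH-77 WT with ARH-77 BtzR.

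LY9, a homophilic receptor whose tail binds SAP, differed most between AMO1 and the other lines. It was at 28.15 and 35.37 FPKM in AMO1 WT and 15.86 and 18.58 FPKM in AMO1 BtzR, whereas the libraries labelled AMO1 CfzR held 0.23 and 0.28 FPKM. In L363 it was near 1 FPKM, with 1.55 and 1.10 FPKM in WT, 1.05 and 1.10 FPKM in BtzR and 0.60 and 0.80 FPKM in CfzR cells. RPMI-8226 WT held 5.93 and 4.63 FPKM, whereas RPMI-8226 BtzR was listed at 0 and 0.07 FPKM. ARH-77 held 2.54 and 4.23 FPKM in WT and 3.20 and 2.55 FPKM in BtzR cells, and these libraries overlapped. In order of level, AMO1 WT, AMO1 BtzR and RPMI-8226 WT came first without overlap between them.

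SLAMF6, SLAMF1 and SLAMF8 were higher in ARH-77 than in each myeloma library. SLAMF6, a homophilic receptor of lymphocytes, was at 24.86 and 39.14 FPKM in ARH-77 WT and 47.85 and 40.66 FPKM in ARH-77 BtzR, and at 0.09 to 0.35 FPKM in the 16 libraries of the other groups. SLAMF1, the founding member of the family and a receptor for measles virus, was at 5.24 and 2.57 FPKM in ARH-77 WT and 9.86 and 6.0 FPKM in BtzR cells, and at 0 to 0.17 FPKM in the other 16 libraries. SLAMF8, known from myeloid cells and lacking the tyrosine motifs, was at 0.29 and 0.34 FPKM in ARH-77 WT and 1.16 and 1.26 FPKM in BtzR cells, and at 0 to 0.11 FPKM elsewhere. For all 3 genes the BtzR libraries of ARH-77 lay above the WT libraries. The gap was narrow for SLAMF6 (40.66 against 39.14 FPKM) and SLAMF1 (6.0 against 5.24 FPKM). The share of all genes that separate in this way was not computed, so nothing is read from it.

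CD84 and CD244 stayed low in every library. CD84, a homophilic receptor of B cells and platelets, lay between 0.59 and 1.14 FPKM over the 20 libraries, and each group overlapped with the next in order. CD244, the natural killer cell receptor for CD48, was listed at 0 to 0.56 FPKM, with the highest values in ARH-77 BtzR (0.56 and 0.52 FPKM). In AMO1, L363 and ARH-77, libraries with 189.10 to 405.20 FPKM of CD48 thus held at most 0.56 FPKM of its receptor. CD84 and CD244 had no group mean of 1 FPKM and were not tested.

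Groups were compared with limma on log2(FPKM + 1), in which adding 1 understates the change of low genes. Calls needed both an adjusted p under 0.05 (Benjamini-Hochberg over the 13089 genes tested) and a log2-fold change of 1 or more in size. Of the 8 receptors, 6 passed the filter of 1 FPKM in a group mean. SLAMF1 and SLAMF6 passed it only through the WT and BtzR groups of ARH-77, and SLAMF8 only through ARH-77 BtzR. They had to be higher there to be tested, so their differences between ARH-77 and the myeloma lines, and that of SLAMF8 between ARH-77 BtzR and WT, are given as values with no test. CD48, LY9 and SLAMF7 passed the filter in other lines too.

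Between WT lines, SLAMF7 was higher in AMO1 and L363 and lower in RPMI-8226 than in ARH-77. AMO1 WT against ARH-77 WT gave calls for 2 of the 3 receptors CD48, LY9 and SLAMF7, beside 24.3% of all tested genes. These were LY9 (log2-fold change 2.92, SE 0.17, adjusted p = 1.39e-09 by limma) and SLAMF7 (1.62, SE 0.14, adjusted p = 8.84e-08). L363 WT gave 1 call of 3, beside 25.2%, which was SLAMF7 (2.72, SE 0.14). RPMI-8226 WT gave 2 of 3, beside 28.4%, with CD48 lower by limma (-4.96, SE 0.13, adjusted p = 5.34e-14) and SLAMF7 lower (-4.06, SE 0.14). Mean SLAMF6 was 32.0 FPKM in ARH-77 WT, 0.240 FPKM in AMO1 WT, 0.220 FPKM in L363 WT and 0.235 FPKM in RPMI-8226 WT. Mean SLAMF1 was 3.91 FPKM in ARH-77 WT, 0.005 FPKM in AMO1 WT and 0.105 FPKM in L363 WT, and it was listed at 0 in both RPMI-8226 WT libraries.

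Among the myeloma lines, RPMI-8226 held less CD48 and SLAMF7 than the other two. AMO1 WT exceeded RPMI-8226 WT by log2-fold changes of 5.65 for CD48, 5.68 for SLAMF7 and 2.38 for LY9. These were 3 calls of 6, or 3 of the 3 receptors CD48, LY9 and SLAMF7, beside 21.9% of all genes. L363 WT exceeded RPMI-8226 WT by 5.80 for CD48 and 6.78 for SLAMF7 and was lower in LY9 (-1.43, adjusted p = 4.28e-06 by limma). These were again 3 calls beside 21.9%. AMO1 WT against L363 WT gave 2 calls beside 16.6%, LY9 (3.81, adjusted p = 9.38e-11 by limma) and SLAMF7 (-1.10, adjusted p = 8.4e-06). The SLAMF7 difference was -0.95 and no longer called without L363 WT replicate 1. CD48 did not pass the test between AMO1 WT and L363 WT (log2-fold change -0.15, SE 0.13, adjusted p = 0.322).

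With bortezomib resistance, CD48 and LY9 fell in RPMI-8226, where mean CD48 went from 5.88 to 0.345 FPKM and mean LY9 from 5.28 to 0.035 FPKM. The log2-fold changes were -2.36 for CD48 (SE 0.13, adjusted p = 6e-10 by limma) and -2.59 for LY9 (SE 0.17, adjusted p = 9.52e-09). These were 2 calls among 6 receptors, or 2 of the 3 receptors CD48, LY9 and SLAMF7, beside 13.8% of all tested genes. Both called genes were lower in 2 of 2 resistant libraries. SLAMF7 passed the adjusted p but not the fold threshold (log2-fold change -0.41, SE 0.14, adjusted p = 0.0217 by limma), at levels under 1 FPKM. It no longer passed the adjusted p without RPMI-8226 WT replicate 1 (0.0589), WT replicate 2 (0.101) or BtzR replicate 1 (0.126), or with quantile normalization (0.103). With pseudocounts of 0.1 and 0.01 its log2-fold change was -1.02 and -1.2, and it was called. The summed level of the family was 12.9 FPKM in RPMI-8226 WT and 1.99 FPKM in RPMI-8226 BtzR. Of 8 plasma cell and 8 B cell markers, 3 in each list were called lower in RPMI-8226 BtzR, 0 were called higher and 5 in each list were not called. Among the plasma cell markers these were CD38 (51.2 to 2.73 FPKM), TNFRSF17, which encodes BCMA (96.1 to 6.40 FPKM), and TNFRSF13B, which encodes TACI (16.9 FPKM to listed at 0). Plasma cell markers with higher values in both BtzR libraries that were not called were XBP1 (247 to 334 FPKM), IRF4 (63.4 to 100.3 FPKM) and PRDM1 (11.33 and 12.66 FPKM in WT, 21.38 and 15.88 FPKM in BtzR). Among the B cell markers those called lower were BLK, CR2 and FCER2, and the list's summed level went from 40.3 and 40.4 FPKM to 5.88 and 14.7 FPKM. Their part in the receptor result was not tested.

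In AMO1, L363 and ARH-77, 0 of 6 receptors were called with bortezomib resistance, beside 9.18%, 2.06% and 1.6% of all tested genes. In AMO1 and L363, SLAMF1, SLAMF6 and SLAMF8 were at 0.35 FPKM or less and so had almost no room to be called lower. Among the 3 receptors CD48, LY9 and SLAMF7 the count was 0 in each of these lines. In AMO1 BtzR, LY9 was lower (log2-fold change -0.84, SE 0.17, adjusted p = 0.00103 by limma) and SLAMF7 higher (0.66, SE 0.14, adjusted p = 0.00119), both under the fold threshold. The LY9 change reached -1.0 and was called without AMO1 WT replicate 1. At an unadjusted p under 0.05, limma counted 2 receptors in AMO1, 4 in ARH-77 and 0 in L363. Those in ARH-77 were SLAMF1, SLAMF6, SLAMF7 and SLAMF8, and SLAMF8 was tested only because of its level in ARH-77 BtzR. The share of all tested genes at this unadjusted level was not computed, so nothing is read from such counts here or below. In ARH-77 BtzR, SLAMF1 (log2-fold change 0.89, SE 0.20, adjusted p = 0.00928 by limma) passed the adjusted p but not the fold threshold. Mean SLAMF8 was 1.21 FPKM there and 0.315 FPKM in WT. SLAMF6 did not pass the adjusted p (0.49, SE 0.16, adjusted p = 0.0621). SLAMF1 depended on single libraries. Its log2-fold change was 0.48 without ARH-77 WT replicate 2 (adjusted p = 0.0772 by limma), 0.57 without BtzR replicate 1 (adjusted p = 0.14), 1.29 and called without WT replicate 1, and 1.2 and called without BtzR replicate 2.

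**Figure D2:**
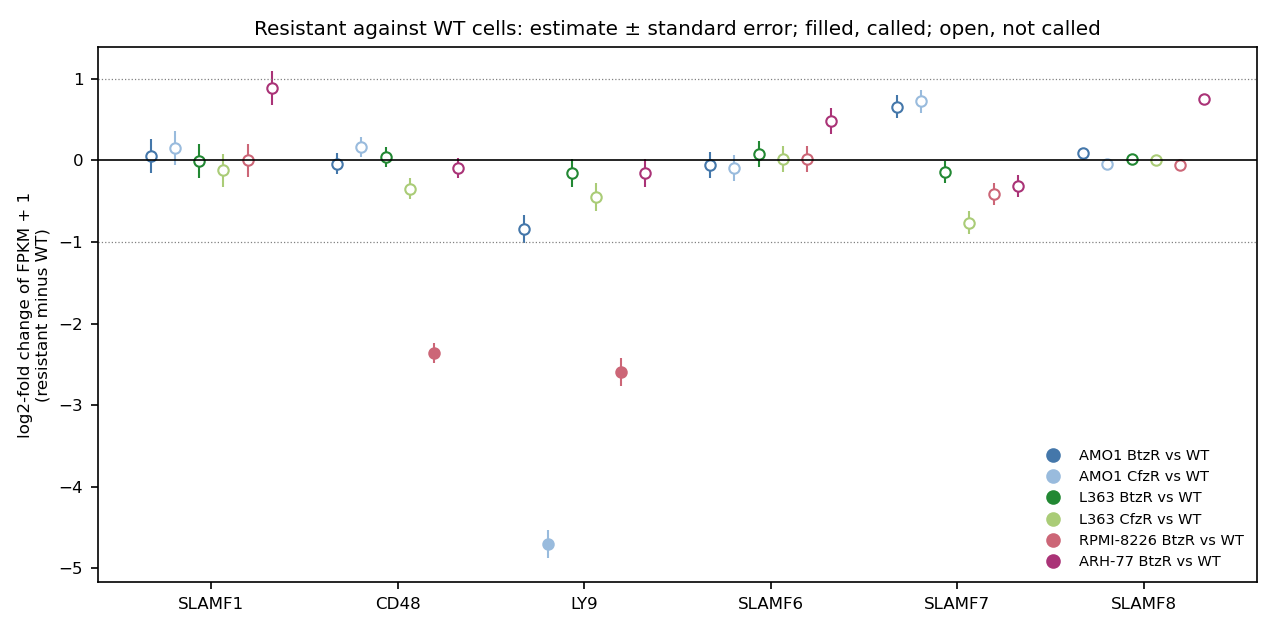
Log2-fold change of FPKM + 1, resistant minus WT (vertical axis), of the 6 tested receptors (horizontal axis) in 6 comparisons (colors), with standard errors as bars, filled points for called changes and dotted lines at the fold threshold. CD48 and LY9 in RPMI-8226 BtzR and LY9 in the libraries labelled AMO1 CfzR lay below -1, and the other estimates lay within the dotted lines.

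The effect of bortezomib resistance was compared across the 4 lines by limma's F test. It differed for 5 of 6 receptors, beside 71.1% of all tested genes, so a difference between lines was the rule in these data. For CD48 (adjusted p = 4.63e-08) the effect in RPMI-8226 lay below that in each other line, with the effect in AMO1 exceeding it by 2.32 (SE 0.18, adjusted p = 6.09e-08), L363 by 2.41 and ARH-77 by 2.27 on the log2 scale. For LY9 (adjusted p = 1.98e-06) these gaps were 1.75, 2.44 and 2.44. SLAMF7 (adjusted p = 0.000867) differed through AMO1. By limma, its effect there exceeded that in L363 by 0.80 (SE 0.20, adjusted p = 0.00493) and that in ARH-77 by 0.97 (SE 0.20, adjusted p = 0.00133). It exceeded that in RPMI-8226 by 1.07 (adjusted p = 0.000357 by limma). SLAMF7 was under 1 FPKM in RPMI-8226, where the size of its effect depended on the pseudocount, so the size of this last gap does too. SLAMF8 was the fifth receptor counted, but it was tested only because of its level in ARH-77 BtzR, so nothing is read from its p. SLAMF1 passed the F test (adjusted p = 0.0302) and SLAMF6 did not (adjusted p = 0.15). Both were tested only because of their level in ARH-77 and were at 0.35 FPKM or less in the other lines. Their F tests thus set the change in ARH-77 against values near 0, and no difference between lines is read from them.

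Carfilzomib resistance could be compared with bortezomib resistance at the same 90 nM in L363. CfzR against WT gave 0 calls among 6 receptors, beside 1.93% of all tested genes, and CfzR against BtzR gave 0, beside 1.47%. Among the 3 receptors CD48, LY9 and SLAMF7 the count was 0 in both comparisons. SLAMF7 passed the adjusted p but not the fold threshold in both, with a log2-fold change of -0.76 against WT (SE 0.14, adjusted p = 0.00208 by limma) and -0.62 against BtzR (SE 0.14, adjusted p = 0.0128). The latter no longer passed the adjusted p without BtzR replicate 1 (0.0638), BtzR replicate 2 (0.115) or CfzR replicate 1 (0.159). CD48 was also lower in both CfzR libraries than in both WT libraries but did not pass (log2-fold change -0.35, SE 0.13, adjusted p = 0.127 by limma). At an unadjusted p under 0.05, limma counted 3 receptors for CfzR against WT (CD48, LY9 and SLAMF7) and 2 for CfzR against BtzR (CD48 and SLAMF7).

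The libraries labelled AMO1 CfzR differed from AMO1 WT mainly in LY9, which was at 0.255 FPKM on average against 31.8 FPKM (log2-fold change -4.70, SE 0.17, adjusted p = 7.87e-12 by limma). This was 1 call of 6, or 1 of the 3 receptors CD48, LY9 and SLAMF7, beside 17.1% of all tested genes. Against L363 WT there were 0 calls, beside 1.66%, and against L363 CfzR 0, beside 1.15%. At an unadjusted p under 0.05, limma counted 2 and 3 receptors in these comparisons. LY9 against L363 WT passed the adjusted p but not the fold threshold (-0.88, SE 0.17, adjusted p = 0.00477 by limma). It did not pass without L363 WT replicate 1 (-0.74, adjusted p = 0.0774) and was called without L363 WT replicate 2 (-1.02). SLAMF7 was higher than in AMO1 WT (0.72, adjusted p = 0.000434 by limma), under the fold threshold, and was 0.38 lower on the log2 scale than in L363 WT without passing the test (adjusted p = 0.154).

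The adaptors that couple these receptors to kinases were nearly absent. SH2D1A, the gene of SAP, had its highest libraries in RPMI-8226 WT at 0.21 and 0.34 FPKM and was listed at 0 in both libraries of 7 groups. SH2D1B, the gene of EAT-2, had a group mean of at most 0.02 FPKM. Of 22 signaling genes, 20 passed the filter. In AMO1 BtzR 4 of them were called lower and 0 higher (beside 9.18% of all tested genes), and in RPMI-8226 BtzR 4 lower and 2 higher (beside 13.8%). In L363 BtzR 0 were called in either direction (beside 2.06%), and in ARH-77 BtzR 1 higher and 0 lower (beside 1.6%). L363 CfzR had 1 higher (beside 1.93%), FGR, a SRC family kinase (0.055 to 1.47 FPKM). The libraries labelled AMO1 CfzR had 5 lower and 1 higher than AMO1 WT (beside 17.1%). The median log2-fold change of the 20 genes was -0.20 in AMO1 BtzR and -0.13 in RPMI-8226 BtzR, against -0.0017 and 0.05 for all tested genes.

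PTPN6, the gene of the phosphatase SHP-1, was lower in the BtzR cells of both AMO1 (143 to 9.66 FPKM) and RPMI-8226 (6.37 to 0.16 FPKM). In AMO1 BtzR the other called genes were the adaptors DOK2 (33.1 to 0.02 FPKM) and SH3BP2 (13.1 to 4.13 FPKM) and the kinase FGR (14.6 to 0.555 FPKM). In RPMI-8226 BtzR, INPP5D, the gene of the lipid phosphatase SHIP1, went from 6.83 to 0.03 FPKM, the kinase SYK from 18.7 to 3.85 FPKM, and RASA1, a RAS GTPase-activating protein, from 14.4 to 71.2 FPKM. The others called there were PLCG2, which was lower, and FYN, which was higher.

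**Figure D3:**
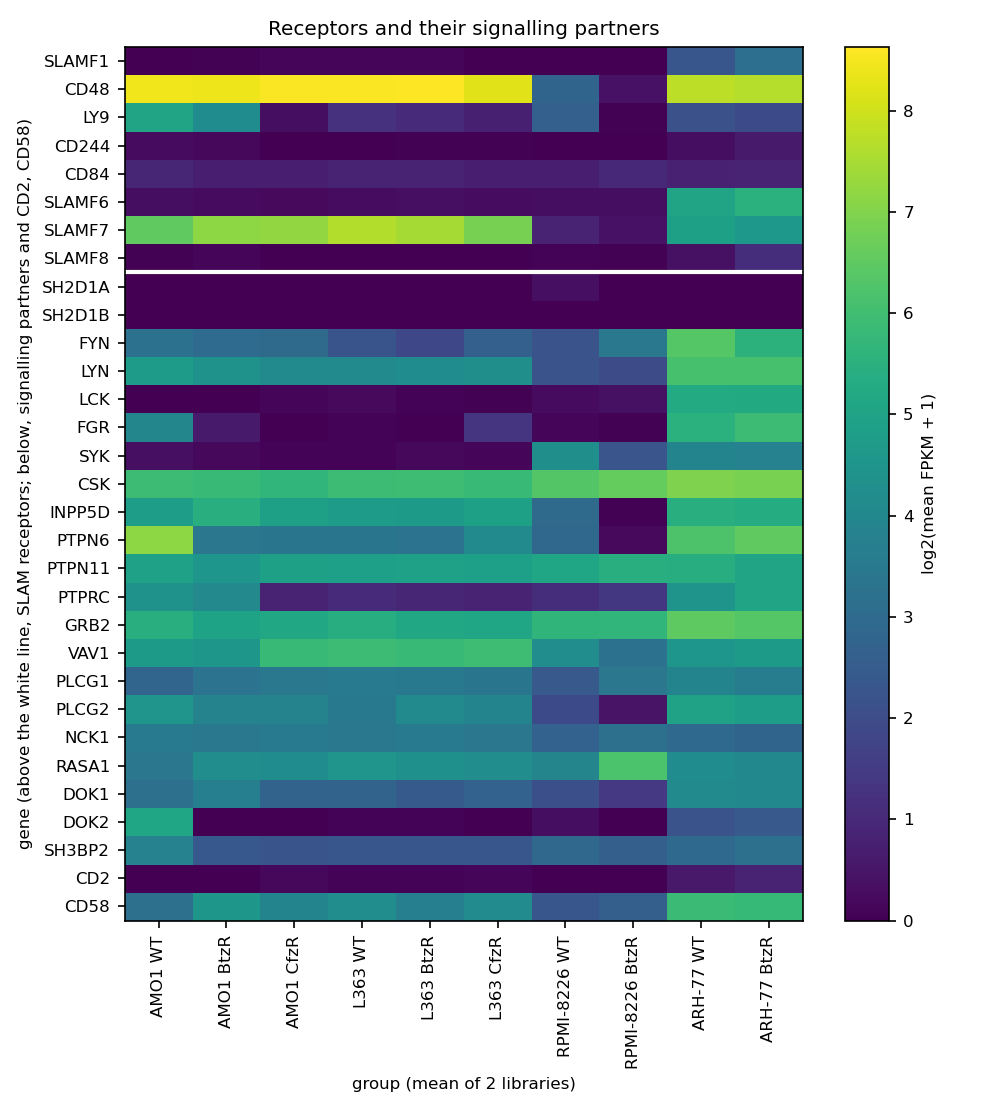
Group means on the log2(mean FPKM + 1) scale (color) of the 8 SLAM receptors (above the white line) and of signaling genes with CD2 and CD58 (below it) in the 10 groups (columns). SH2D1A and SH2D1B were at or near 0 in each column, and PTPN6 was lower in AMO1 BtzR than in AMO1 WT and lower in RPMI-8226 BtzR than in RPMI-8226 WT.

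The related receptor CD2, which also binds CD48 weakly, was at most 0.18 FPKM in the myeloma libraries and 0.42 to 0.81 FPKM in ARH-77. CD58, the ligand of CD2, was called higher in AMO1 BtzR, with 25.47 and 20.50 FPKM against 9.23 and 7.11 FPKM in WT (log2-fold change 1.39, SE 0.12, adjusted p = 3.56e-07 by limma). It was 1 of 5 tested genes of the list of binding and signaling partners to be called in that comparison, beside 9.18% of all tested genes. In L363 BtzR, L363 CfzR, RPMI-8226 BtzR and ARH-77 BtzR 0 were called, beside 2.06%, 1.93%, 13.8% and 1.6%. SLAMF9, a further gene of the family's receptors that was kept in this list, was listed at 0 in 19 libraries and at 0.15 FPKM in AMO1 WT replicate 2. In the libraries labelled AMO1 CfzR the 1 called partner (beside 17.1%), PIK3C3, a lipid kinase subunit, was lower than in AMO1 WT (14.9 to 6.73 FPKM).

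Markers of T cells, natural killer cells and monocytes were read because those cells also carry SLAM receptors. The summed level of 8 T and NK cell markers lay between 3.21 and 18.7 FPKM in the myeloma libraries, and between 53.2 and 184 FPKM in ARH-77. Most of the ARH-77 sum was 1 gene, NKG7, a granule protein. It was at 73.77 and 45.68 FPKM in ARH-77 WT and 177.08 and 124.18 FPKM in BtzR cells. Each other marker of this list was at 3.97 FPKM or less in ARH-77, so the list as a set was not high there. Of the 5 T and NK cell markers tested, 1 was called higher in ARH-77 BtzR (beside 1.6% of all tested genes), NKG7 (59.7 to 151 FPKM). In AMO1 BtzR 2 of 5 were called lower (beside 9.18%), CD3E (8.70 to 0.900 FPKM) and CD8A. The summed level of 8 monocyte and macrophage markers lay between 4.14 and 23.3 FPKM over all libraries, and CD68, a lysosomal protein, was called lower in AMO1 BtzR and RPMI-8226 BtzR. Of 8 plasma cell markers, 2 were called lower and 0 higher in AMO1 BtzR (beside 9.18%), SDC1, the gene of CD138, and CD38. PRDM1 (26.3 to 37.9 FPKM) and MZB1 (489 to 629 FPKM) were higher in both BtzR libraries there and were not called. In ARH-77 BtzR 1 was called lower and 0 higher (beside 1.6%), CD38, while XBP1 and SDC1 were higher in both BtzR libraries and were not called. Of 8 B cell markers, FCER2 was the 1 called in AMO1 BtzR, where it was lower, and in ARH-77 BtzR, where it was higher. Their part in the receptor results was not tested.

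The genes around the cluster were read as 10 on each side of the run from SLAMF6 to CD244, of which 13 of 20 were tested. In RPMI-8226 BtzR 3 were called lower, all beyond CD244, beside 13.8% of all tested genes in either direction. They were ARHGAP30, a GTPase-activating protein (15.6 to 0.835 FPKM, log2-fold change -3.20, adjusted p = 2.36e-10 by limma), KLHDC9 (2.84 to 0.150 FPKM, -1.73) and TSTD1 (47.4 to 20.8 FPKM, -1.15). Genes between or beside them were not called, such as USF1, a transcription factor, at 25.8 FPKM in both groups, and F11R, a junction protein (22.5 and 20.6 FPKM). In AMO1 BtzR 2 neighbors were called higher (beside 9.18%), KLHDC9 (1.65) and PEA15 (1.24), while CD48 between them kept a log2-fold change of -0.04. None of the 13 was called in L363 BtzR (beside 2.06%), L363 CfzR (beside 1.93%) or ARH-77 BtzR (beside 1.6%). In the libraries labelled AMO1 CfzR against AMO1 WT 1 was called lower (beside 17.1%).

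**Figure D4:**
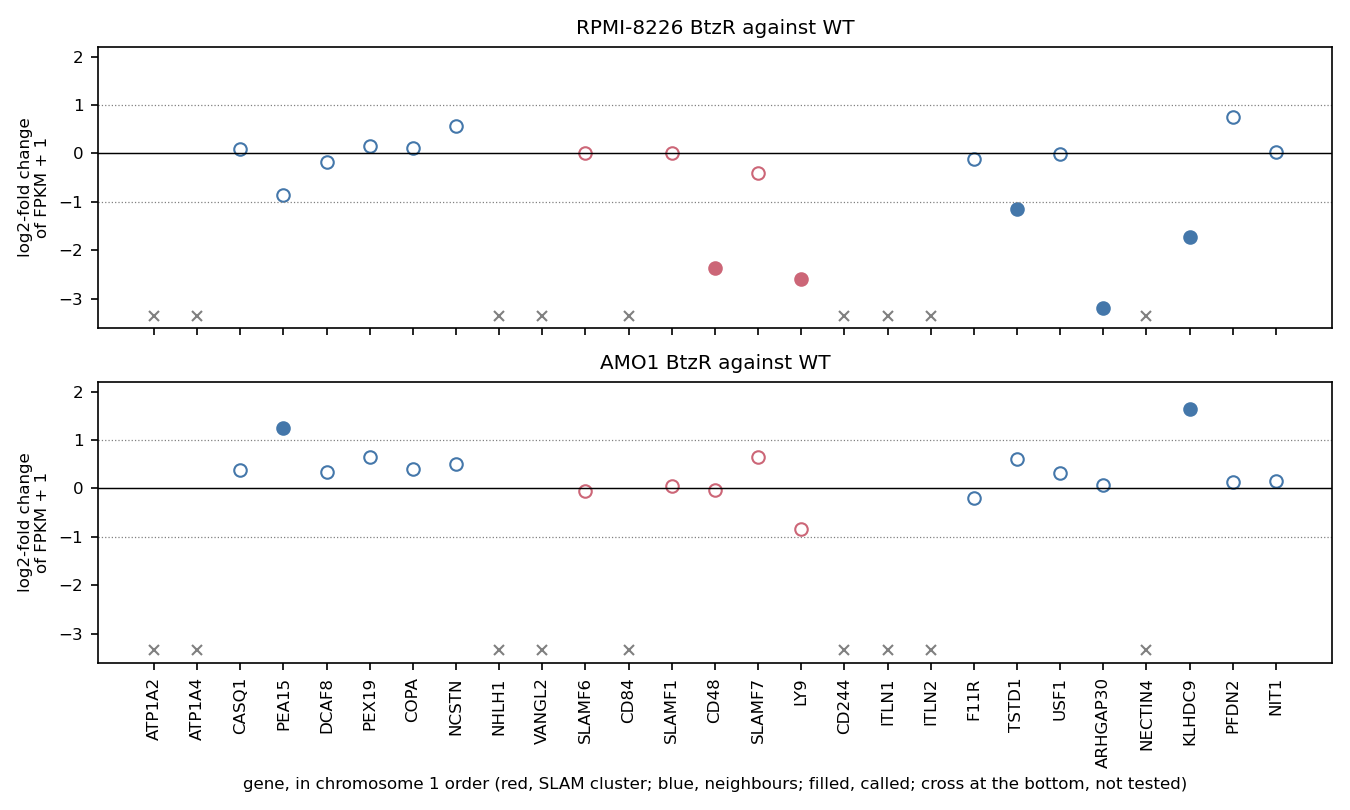
Log2-fold change of FPKM + 1 (vertical axis) of the 7 clustered receptors (red) and 20 neighboring genes (blue) in chromosome order (horizontal axis, not to distance) in RPMI-8226 BtzR (top) and AMO1 BtzR (bottom) against WT, with filled points for called genes and crosses for genes not tested. In RPMI-8226 called decreases stood beside uncalled genes, and in AMO1 the called genes were PEA15 and KLHDC9.

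Likeness between genes was described by Pearson's r over the 10 group means of log2(FPKM + 1), which share cell lines and so are not independent. CD48 and SLAMF7 had an r of 0.950, SLAMF1 and SLAMF6 0.990, SLAMF1 and SLAMF8 0.930 and SLAMF6 and SLAMF8 0.884. LY9 had an r of at most 0.248 with the other 5 tested receptors. Among 3555 genes whose means spanned at least 2 log2 units, those most like CD48 were CCNJ (0.986), PLEKHO1 (0.983) and FCHSD1 (0.982). Those most like SLAMF7 were LZTR1 (0.985), SNRPN (0.983) and PIP5K1B (0.980), and those most like LY9 were RHOQ (0.962), IFNLR1 (0.942) and ATP2A3 (0.940). SLAMF6 was most like CALD1, STAP1 and SIRPG, SLAMF1 most like GTSF1L and RAI14 among those reported, and SLAMF8 most like GIMAP5, TSPAN11 and IL1R2. For SLAMF1, SLAMF6 and SLAMF8 the values of r rest on the split between the 2 ARH-77 groups and the other 8.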

How the data were processed

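RNA of 20 libraries (10 groups, 2 biological replicates each) was extracted and sequenced by BGI (BGISEQ-500). Per the authors' table, deposited values are FPKM with 2 decimals for 18305 genes, with RefSeq transcripts and NCBI gene IDs. The submitters' processing notes name HISAT2 2.0.4, Bowtie2 2.2.5 and RSEM 1.2.12, and the genome build is not given in the sources used here. FPKM do not give depth, so the precision rests on 2 replicates, and 0 means listed at 0. The paper calls the replicates biological but does not say how their cultures were separated. The p-values thus measure the spread between these libraries, and how much of it is technical is unknown.

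Libraries were grouped by line, drug and replicate number in their labels, and all value columns were used. log2(FPKM + 1) was fitted with limma 3.58.1 in R 4.3.3, with a mean per group over all 20 libraries (10 residual degrees of freedom) and a mean-variance trend. Tests were two-sided and covered the 13089 genes whose mean reached 1 FPKM in any group. Calls needed a Benjamini-Hochberg adjusted p under 0.05 and a log2-fold change of 1 or more in size. There were 15 comparisons and 1 F test of the bortezomib effect across lines. An exact permutation test of 2 against 2 libraries cannot go below 0.33, so none was made. The fit was tested on simulated data.

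The receptors, gene lists and alternatives were chosen with earlier results of these data known. Besides the 8 receptors, the text names called genes of the lists (up to 4 by fold per comparison), the 3 genes most like each receptor, and 10 neighbors on each side in RefSeq order (18261 of 18305 IDs matched). PLCG2, FYN, XBP1, IRF4 and PRDM1, beyond these limits, were named after their values were seen, and some genes that these rules select are not reported here. Promoter windows and their coordinates come from RefSeq (GRCh38.p14), which held 5 of the 8 receptors in the table used, and motifs were searched on both strands. Python 3.11.15, numpy 2.4.6, pandas 2.3.3 and matplotlib 3.10.9 were used. Alternatives were pseudocounts of 0.1 and 0.01, a filter of 5 FPKM or none, rescaling each library to an equal sum (TPM), quantile normalization, no trend, a replicate block, the compared groups only, and leaving out each library.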

Additional observations from a re-analysis of the deposited data

Results flagged for a closer look

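By limma's F test (Benjamini-Hochberg over 13089 genes), what bortezomib resistance changed was not the same in the 4 lines for 3 receptors. These were CD48 (adjusted p = 4.63e-08), LY9 (adjusted p = 1.98e-06) and SLAMF7 (adjusted p = 0.000867). limma's F test also passed for SLAMF1 (adjusted p = 0.0302) and SLAMF8 (adjusted p = 2.17e-06), but no difference between lines is read from these. CD48 and LY9 were lower in 2 of 2 RPMI-8226 BtzR libraries, with log2-fold changes of -2.36 and -2.59. SLAMF7 was higher in 2 of 2 AMO1 BtzR libraries (0.66), and SLAMF1 was higher in 2 of 2 ARH-77 BtzR libraries (0.89). SLAMF1 was tested only because of its level in ARH-77, and it was at 0.17 FPKM or less in the other lines. Its F test thus rests on the change in ARH-77, which depended on single libraries. SLAMF8 was tested only because its mean reached 1 FPKM in ARH-77 BtzR (1.21 FPKM, against 0.315 FPKM in WT). Neither its p nor its rise there is support for a difference. The same test passed for 71.1% of all tested genes.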

How the results depend on the processing

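Among the receptor results that were called or passed the adjusted p, no direction was reversed. Other receptor results were not checked for this. The results counted next include differences that are given above with no test. These are SLAMF1 and SLAMF6 against ARH-77 WT among the called ones, and SLAMF8 against ARH-77 WT and in ARH-77 BtzR among the others. Their part of the counts is no support for them. Of 286 alternative values of the 22 called results, 285 kept the call and 1 lost it. The 16 results that passed the adjusted p alone kept this in 156 alternative values, became calls in 22 and lost the adjusted p in 22. With a pseudocount of 0.1, the number of receptors called became 3 in RPMI-8226 BtzR, 5 in AMO1 WT and in RPMI-8226 WT against ARH-77 WT, 4 in L363 WT against RPMI-8226 WT, 2 for the libraries labelled AMO1 CfzR against AMO1 WT, 1 in ARH-77 BtzR, 5 in L363 WT against ARH-77 WT, and 1 each for the libraries labelled AMO1 CfzR against L363 WT and against L363 CfzR. With 0.01 it became 3 in RPMI-8226 BtzR, 5 in AMO1 WT and in RPMI-8226 WT and 4 in L363 WT against ARH-77 WT, 3 for the libraries labelled AMO1 CfzR against AMO1 WT, 4 in AMO1 WT against L363 WT, 5 in L363 WT against RPMI-8226 WT and 1 for the libraries labelled AMO1 CfzR against L363 WT. With TPM scaling it became 1 in ARH-77 BtzR, 4 in L363 WT against ARH-77 WT and 1 for the libraries labelled AMO1 CfzR against L363 WT. Leaving out each library gave 0 to 1 in AMO1 BtzR, 0 to 1 in ARH-77 BtzR, 3 to 4 in L363 WT against ARH-77 WT, 1 to 2 in AMO1 WT against L363 WT and 0 to 1 for the libraries labelled AMO1 CfzR against L363 WT.

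The F test passed for 4 to 6 receptors over the alternatives. Counts against ARH-77 WT include SLAMF1, SLAMF6 and SLAMF8, which were tested because of their level in ARH-77. With the smaller pseudocounts, added calls can rest on values near 0, such as SLAMF1 in L363 WT (0.105 FPKM) and in RPMI-8226 WT (listed at 0). Nothing is read from receptor counts that have no total over all genes below. Over all genes, calls with pseudocounts of 0.1 and 0.01 rose from 1201 to 1919 and 2024 in AMO1 BtzR, from 270 to 580 and 582 in L363 BtzR, from 253 to 546 and 517 in L363 CfzR, from 1809 to 2722 and 2845 in RPMI-8226 BtzR, from 210 to 473 and 465 in ARH-77 BtzR, and from 193 to 383 and 348 in L363 CfzR against BtzR. For the libraries labelled AMO1 CfzR they rose from 217 to 494 and 510 against L363 WT and from 151 to 337 and 298 against L363 CfzR. Against AMO1 WT they rose from 2237 to 3219 and 3412. With TPM scaling, calls over all genes went from 3297 to 3814 in L363 WT against ARH-77 WT. For the libraries labelled AMO1 CfzR against L363 WT they went from 217 to 300 with TPM scaling. AMO1 WT against L363 WT went from 2174 to 3312 with 0.01. In ARH-77 BtzR they went from 210 to 318 with TPM scaling and to 347 without ARH-77 WT replicate 1. The cause was not tested. Deviations of same-numbered libraries correlated at -0.029 to 0.296, over 0.1 in 11 of 15 comparisons. With 2 pairs per comparison and no label that ties same-numbered libraries, they were not treated as pairs, and a shared replicate effect was not excluded. With the replicate block the number of receptors called was the same in all 15 comparisons (2 in RPMI-8226 BtzR) and 5 in the F test, and all genes passing the F test went from 9306 to 9718. Without read counts, values near 0 carry no known counting error.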
